A study of Mus musculus with 18 samples.

Results

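The genes of the AP-1 transcription factor and of the immediate early response were examined at the level of chromatin in mouse cells with and without KAP1, the corepressor encoded by Trim28. The 9 genes were Fos, Fosb, Fosl1, Fosl2, Jun, Junb, Jund, Atf3 and Egr1, chosen by name, out of 22367 protein coding genes that GENCODE annotates on mm9. Each was taken as its gene body with 20 kb on both sides. The peak lists of 6 ChIP-seq libraries out of the 18 samples of the series were used, with 1 library per condition. H3K27ac and H3K9me3 had been profiled in mouse embryonic fibroblasts (MEF) of C57BL/6 background, either WT with both Kap1 alleles flanked by loxP sites (Kap1 loxP/loxP) or Kap1 KO. KAP1 and SETDB1 had been profiled in WT Hepa 1.6, a hepatoma line from a BW7756 tumour of a C57L mouse. For RNA-seq the study had kept a stably growing Kap1 KO clone and its non-excised counterpart in culture for many passages, and it is not given in the sources used here whether the ChIP-seq cells were the same clone. With 1 library per genotype no test between WT and Kap1 KO was possible, and the differences below compare 2 libraries.

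AP-1 is a pair of proteins, built from a FOS family member (Fos, Fosb, Fosl1, Fosl2) and a JUN family member (Jun, Junb, Jund), or from JUN proteins alone, that grip DNA through their basic leucine zippers at the site TGACTCA. Most of these genes are immediate early genes: serum and growth factors switch them on within minutes without new protein synthesis, and fibroblasts are the cells in which this response was worked out. KAP1 is brought to DNA by KRAB zinc finger proteins and recruits SETDB1, which writes H3K9me3, a mark of silent chromatin, while H3K27ac marks active promoters and enhancers.

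In MEF, all 9 genes carried an H3K27ac peak over their start in both genotypes, as did 50.03% of all genes in WT and 48.4% in Kap1 KO. At 8 of them the acetylated length differed by less than 1.5-fold. Jun had 0.623 times the WT length, where 11.8% of the genes tested were at least 1.5-fold lower. A pair of WT peaks 13 to 17 kb downstream of the Jun start had no counterpart in Kap1 KO, and Jun was no longer 1.5-fold lower within 5 kb of the gene or when the 50% of peaks with the lowest scores were dropped. For the repressive mark, Atf3 had 4 WT H3K9me3 peaks just upstream of its start and none in Kap1 KO. A WT H3K9me3 peak anywhere in the gene body with 20 kb on both sides was found at 27.4% of all genes. At equal numbers of H3K9me3 peaks in both lists, 1 of the 4 remained. Atf3 also had the only SETDB1 listed peak found near the 9 genes (9.41% of all genes).

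The sequences upstream of 4 starts are shown first, with their matches to the motifs named below, which not every stretch holds. They were read from the mm9 genome along the direction of transcription. Capitals mark matches to TGACTCA (the AP-1 site), TGACGTCA (the cAMP response element), TGACG (the core of that element, contained in TGACGTCA), TGACATCA (the variant in the Jun promoter), TATAAA and the CArG box, which the serum response factor binds. Both strands were searched, so that CGTCA marks TGACG on the other strand. The Fos stretch is chr12:86814515-86814814 (plus strand), that of Fosb chr7:19895395-19895694 (minus strand), that of Jun chr4:94718914-94719163 (minus strand) and that of Junb chr8:87502618-87502867 (minus strand).
Fos: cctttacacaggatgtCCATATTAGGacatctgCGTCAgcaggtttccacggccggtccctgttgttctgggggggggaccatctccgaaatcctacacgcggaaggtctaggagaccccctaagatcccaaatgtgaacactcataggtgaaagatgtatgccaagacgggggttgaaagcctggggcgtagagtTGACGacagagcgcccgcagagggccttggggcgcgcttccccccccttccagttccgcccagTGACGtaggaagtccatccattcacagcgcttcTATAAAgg
Fosb: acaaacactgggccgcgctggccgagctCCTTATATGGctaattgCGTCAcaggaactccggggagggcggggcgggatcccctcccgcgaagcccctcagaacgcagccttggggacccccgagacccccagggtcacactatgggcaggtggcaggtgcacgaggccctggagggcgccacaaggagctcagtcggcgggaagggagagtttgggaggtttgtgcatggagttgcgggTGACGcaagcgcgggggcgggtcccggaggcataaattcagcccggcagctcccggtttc
Jun: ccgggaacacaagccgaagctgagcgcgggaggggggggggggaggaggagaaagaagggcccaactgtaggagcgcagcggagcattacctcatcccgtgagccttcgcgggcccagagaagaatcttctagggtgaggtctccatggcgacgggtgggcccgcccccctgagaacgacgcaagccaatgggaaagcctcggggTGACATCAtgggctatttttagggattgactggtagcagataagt
Junb: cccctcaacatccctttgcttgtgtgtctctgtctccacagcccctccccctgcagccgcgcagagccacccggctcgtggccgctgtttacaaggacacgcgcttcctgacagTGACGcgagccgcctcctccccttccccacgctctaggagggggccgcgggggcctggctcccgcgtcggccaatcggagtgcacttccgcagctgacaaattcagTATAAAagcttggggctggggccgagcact

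The Fos stretch carries a CArG box from 309 to 300 bases before the start, with CGTCA starting 8 bases after its last base, and Fosb has the same order of sites. From 500 bases before to 50 after the start, 3 of the 9 genes held a CArG box (Fos, Fosb, Egr1), where 2.83% of the 22357 promoters of this length that were searched did. In the shorter window that starts 250 bases before, it was found at Egr1 alone, with a background of 1.47%. TGACG was present in the shorter window of 6 of the 9 genes (23.3% of 22362 promoters), at Fos, Fosb, Fosl1, Junb, Atf3 and Egr1. TGACG holds a CpG, and most of these genes had more CpG than the median promoter, as given below. The share among promoters of like CpG count was not computed. The full element TGACGTCA was in none of the 9 (2.33% of promoters). TGACATCA was at Jun only (3.03%). The AP-1 site TGACTCA was found in none of the 9 in the shorter window (4.42% of promoters) nor in the longer window (7.97%). A match is a run of letters and not a bound site.

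The CpG count was above the median of all promoters at each start but that of Jund. The count of CpG in the 300 bases from 250 before to 50 after the start was 32 at Fosl2, 28 at Egr1, 26 at Atf3, 25 at both Fosb and Fosl1, 21 at Junb, 20 at Fos and 15 at Jun, with a median of 11 over all promoters. Between 56.6% (Jun) and 88.9% (Fosl2) of all promoters had fewer CpG than the genes just named. All promoters include those of genes without an H3K27ac peak over the start, and a median without them was not computed. Jund had 3 at the 5′ end of its annotated gene, and 19.4% of all promoters had fewer. A second annotated Jund transcript started 1219 bp further on, and the 300 bases around that start held 38 CpG with a GC content of 70.7%.

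The second set of sequences comes from peaks described below, chosen for a KAP1 peak or, among the H3K27ac peaks of 1 genotype, for an AP-1 site. They are the middle 300 bases of each overlap between the KAP1 peak and a WT H3K9me3 peak at Atf3 (chr1:193008774-193009073 and chr1:193008099-193008398, minus strand), of the KAP1 peak near Fosb (chr7:19886492-19886791, minus strand), of the WT only H3K27ac peak of Jun that holds an AP-1 site (chr4:94702227-94702526, minus strand) and of the Kap1 KO only peaks of Fosl2 (chr5:32432007-32432306, plus strand) and Junb (chr8:87485743-87486042, minus strand) that hold it too. Capitals mark the same motifs.
Atf3, outer overlap: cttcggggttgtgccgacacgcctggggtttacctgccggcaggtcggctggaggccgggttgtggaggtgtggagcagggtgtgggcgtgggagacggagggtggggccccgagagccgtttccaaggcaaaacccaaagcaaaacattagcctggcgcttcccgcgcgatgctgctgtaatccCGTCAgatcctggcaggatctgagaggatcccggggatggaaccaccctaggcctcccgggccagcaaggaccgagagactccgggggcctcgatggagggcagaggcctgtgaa
Atf3, inner overlap: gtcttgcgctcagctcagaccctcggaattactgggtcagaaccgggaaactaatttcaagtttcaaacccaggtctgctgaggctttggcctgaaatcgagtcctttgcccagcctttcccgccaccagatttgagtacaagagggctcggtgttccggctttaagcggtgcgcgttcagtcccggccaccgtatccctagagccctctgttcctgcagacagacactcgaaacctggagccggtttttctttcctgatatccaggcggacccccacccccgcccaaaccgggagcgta
Fosb, KAP1 peak: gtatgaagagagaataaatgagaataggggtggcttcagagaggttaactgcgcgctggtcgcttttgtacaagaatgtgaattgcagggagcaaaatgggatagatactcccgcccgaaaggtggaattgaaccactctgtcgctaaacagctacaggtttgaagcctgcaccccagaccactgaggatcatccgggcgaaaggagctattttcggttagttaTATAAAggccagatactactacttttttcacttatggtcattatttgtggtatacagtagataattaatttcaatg
Jun, WT only peak: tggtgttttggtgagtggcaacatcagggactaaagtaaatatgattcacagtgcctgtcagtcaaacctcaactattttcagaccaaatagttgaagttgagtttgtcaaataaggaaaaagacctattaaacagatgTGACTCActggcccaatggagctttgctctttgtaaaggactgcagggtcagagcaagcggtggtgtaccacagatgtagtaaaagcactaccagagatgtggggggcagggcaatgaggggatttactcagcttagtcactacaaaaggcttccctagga
Fosl2, Kap1 KO only peak: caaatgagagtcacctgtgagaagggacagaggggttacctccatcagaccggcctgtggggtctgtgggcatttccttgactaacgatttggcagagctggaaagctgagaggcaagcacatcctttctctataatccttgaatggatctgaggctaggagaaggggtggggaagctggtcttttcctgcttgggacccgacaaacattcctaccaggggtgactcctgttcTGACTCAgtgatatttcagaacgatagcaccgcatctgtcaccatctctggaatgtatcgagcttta
Junb, Kap1 KO only peak: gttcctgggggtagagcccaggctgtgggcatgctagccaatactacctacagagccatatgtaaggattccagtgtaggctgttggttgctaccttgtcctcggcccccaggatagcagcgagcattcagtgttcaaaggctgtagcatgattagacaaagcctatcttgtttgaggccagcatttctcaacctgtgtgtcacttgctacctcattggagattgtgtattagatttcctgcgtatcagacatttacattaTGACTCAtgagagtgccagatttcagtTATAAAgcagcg

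The H3K27ac lists held 36275 peaks in WT and 36436 in Kap1 KO, over 86.2 and 84.7 Mb. Scores came from the peak caller and stopped at a ceiling of 3100 for strong peaks, which 28.1% of the WT list and 21.9% of the Kap1 KO list reached or passed. The H3K9me3 lists were less alike, with 14425 peaks in WT and 4319 in Kap1 KO. Every entry of the SETDB1 list (2957) was an entry of the KAP1 list (13366) with the same position and score. The lists give no read counts, so the depth is unknown, and where no peak is listed the signal may have been below the cutoff for calling one. The MEF label was checked with a list of fibroblast markers: 8 of 8, among them Col1a1 and Prrx1, had an H3K27ac peak over the start in both genotypes. Epithelial (3), blood (3), pluripotent (2) and hepatocyte (4) markers had 0 such peaks. Trim28 itself had a start peak of 4078 bp in WT and 4119 bp in Kap1 KO, which does not check the deletion.

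H3K27ac covered 135999 bp under 39 peaks in the 9 windows in WT and 126252 bp under 42 peaks in Kap1 KO. Over all genes with a mean of at least 1000 covered bases (15939 genes), 11.8% were at least 1.5-fold lower in Kap1 KO and 9.32% at least 1.5-fold higher. Of the 9 genes, 1 was lower by that measure (Jun) and 0 were higher. When the background was limited to genes with a mean of at least 5000 covered bases, 9.49% were lower and 6.19% higher. The median log2 ratio of Kap1 KO over WT was -0.03 for the 9 genes and -0.07 for all genes tested. H3K27ac covered between 11.3% (Atf3) and 66.0% (Fosl1) of each window in WT, where the median over the genes tested was 8.32%. This share depends on the window, which was 41.8 to 61.4 kb long here and had a median of 55.4 kb over all genes. By covered bases in WT, the 9 genes lay between percentiles 61.9 (Egr1) and 99.2 (Fosl1) of all genes.

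**Figure D1:**
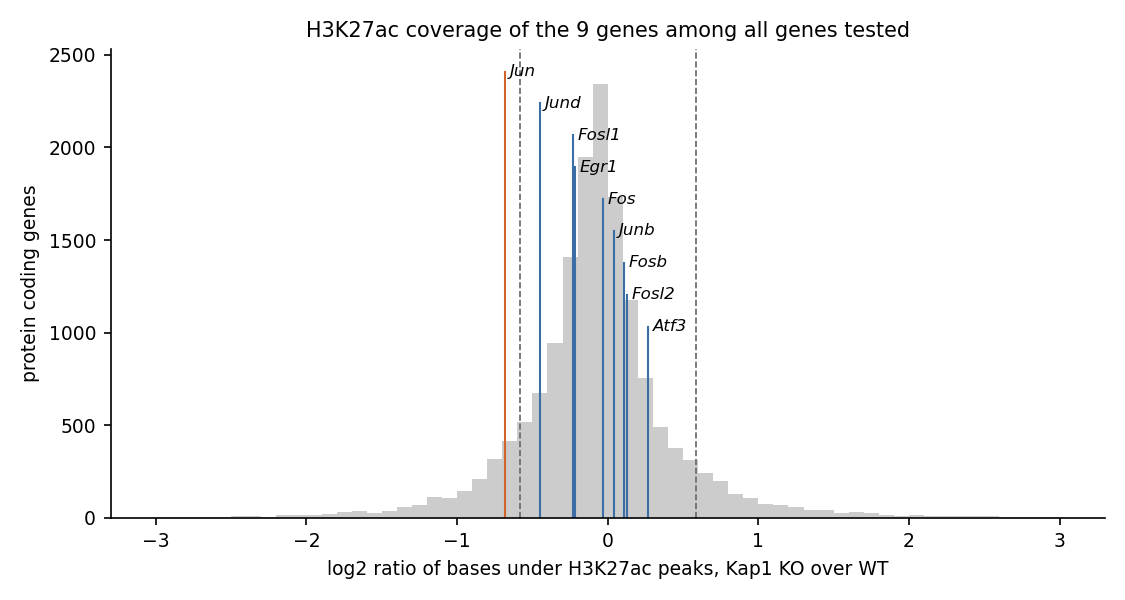
Histogram of the log2 ratio of bases under H3K27ac peaks (Kap1 KO over WT, 1 library each) in the gene body with 20 kb on both sides over 15939 protein coding genes, of which 437 lie outside the plotted range or have no bases in one library. Vertical lines mark the 9 genes and dashed lines a 1.5-fold difference. Jun alone lies past a dashed line, at -0.68, and Atf3 is the highest of the 9 at 0.27.

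A peak over the start was present for 50.03% of all genes in WT and for 48.4% in Kap1 KO, and for 9 of 9 here in both. All 18 of these start peaks had a score of 3100, so that the score could not rank them and the width was used. The median width of the start peak was 6461 bp in WT and 6304 bp in Kap1 KO for the 9 genes, and 2871 and 2781 bp for the genes tested. It was narrower in Kap1 KO for 7 of the 9 genes, and for 64.9% of the 10629 genes with a start peak in both genotypes.

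**Figure D2:**
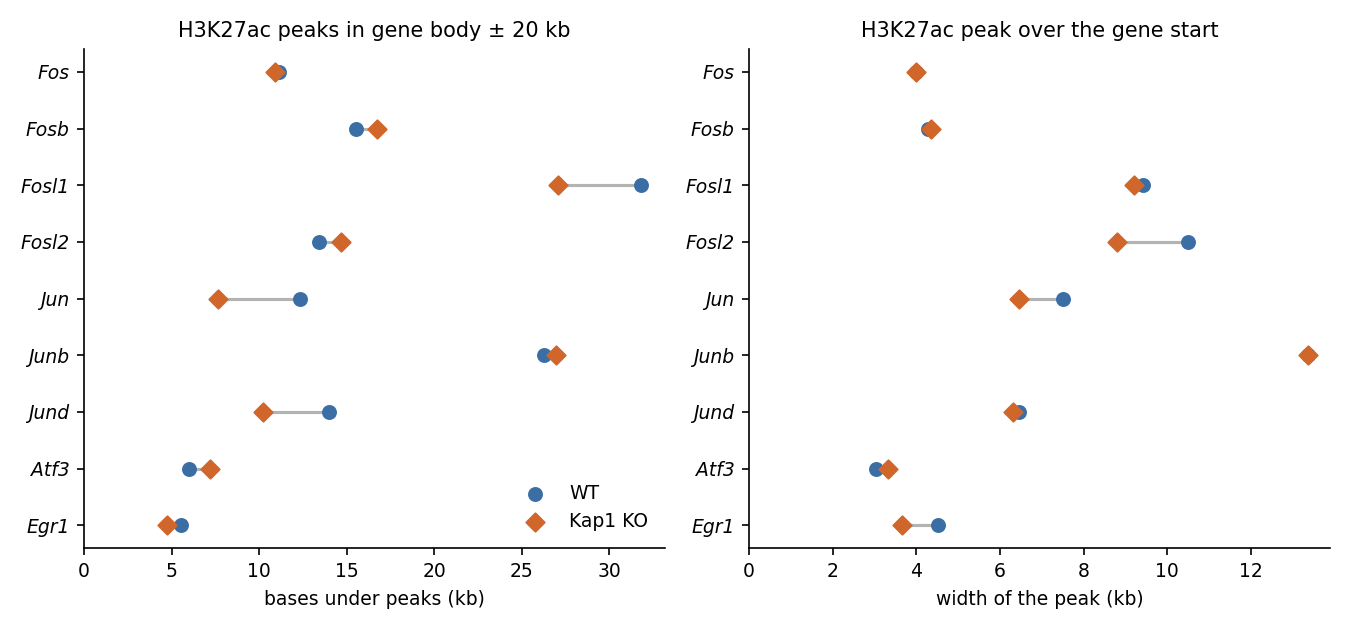
Bases under H3K27ac peaks in the window of each gene (left, kb) and width of the peak over its start (right, kb), in WT (circles) and Kap1 KO (diamonds) MEF, 1 library each. The grey line joins both genotypes of a gene and is longest for Fosl1, Jun and Jund on the left and for Fosl2, Jun and Egr1 on the right.

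Within the FOS family, Fos encodes the founding partner of JUN proteins and is the textbook serum response gene. It had 5 peaks over 11127 bp in WT and 5 over 10929 bp in Kap1 KO, and its start peak measured 4005 and 3987 bp. A peak 17.1 to 19.5 kb upstream, chr12:86795326-86797756 in WT, scored 3100 in WT and 1986.58 in Kap1 KO. Downstream, the peak that begins 11.3 kb from the start in WT scored 2161.72 in WT and 2976.07 in Kap1 KO, and the next one 450.11 and 936.87. By score, the upstream peak was thus lower and both downstream peaks were higher in Kap1 KO, with the WT upstream score at the ceiling. The widths were closer, 2431 bp in WT and 2248 bp in Kap1 KO upstream, and 2883 and 3149 bp, then 2144 and 2354 bp, downstream. A weak WT only peak (chr12:86803081-86804164, score 96.92) and a weak Kap1 KO only peak (chr12:86832568-86833285, score 70.03), both between genes, completed the locus.

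Fosb, whose protein can stand in for FOS and which has a shorter form known from chronically stimulated neurons, had 6 peaks over 15551 bp in WT and 7 over 16761 bp in Kap1 KO. The seventh peak entered the window only by its edge and overlapped a WT peak outside it. All of the peaks were shared. The start peak differed by 75 bp (4280 and 4355 bp), and the peaks on both sides of it had scores of 2793.6, 1622.74 and 2684.2 in WT against 2428.5, 2002.03 and 2476.33 in Kap1 KO.

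Fosl1 encodes FRA1, a late and more stable partner that lacks a strong activation domain. Its window was gene dense, with the starts of Ccdc85b, Ctsw, Efemp2 and Fibp inside it, and had 8 peaks over 31830 bp in WT and 7 over 27070 bp in Kap1 KO. The peak over the Fosl1 start was 9421 bp wide in WT and 9198 bp in Kap1 KO. Most of the missing length therefore lay elsewhere: the WT only peak at chr19:5435926-5437624 (score 231.46, over part of the small RNA gene SNORD86), and narrower peaks at Ccdc85b (3485 and 2406 bp) and Ctsw (2509 and 1513 bp).

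Fosl2 encodes FRA2, the other FRA protein, and has the longest gene body of the 9. It had 3 peaks over 13417 bp in WT and 5 over 14681 bp in Kap1 KO. The peak over its start went the other way, from 10508 bp in WT to 8790 bp in Kap1 KO, a log2 ratio of -0.26. Both additional peaks were in Kap1 KO only, at chr5:32431372-32432942 in an exon of the neighbouring Gm10463 (score 236.3) and at chr5:32451046-32452233 in an intron of Fosl2 (score 107.6). The former is printed above with its TGACTCA.

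Within the JUN family, Jun encodes a strong activator, and its promoter carries the TGACATCA variant shown above. It had 4 peaks over 12314 bp in WT and 2 over 7676 bp in Kap1 KO, a log2 ratio of -0.68 that lay at percentile 9.29 of the genes tested. The start peak accounted for part of the difference, with 7500 bp in WT and 6446 bp in Kap1 KO. In WT it also covered a transcript start of the noncoding Gm12703, which the narrower Kap1 KO peak did not reach. The larger part came from 3 WT peaks in an intron of Gm12703. The peaks at chr4:94703964-94705730 (score 462.38) and chr4:94701637-94703117 (score 165.99) had no Kap1 KO peak over them, and the third, at chr4:94699079-94700644, scored 615.33 in WT and 269.56 in Kap1 KO. All 3 were therefore missing or had a lower score in Kap1 KO. They lay 13183 to 19834 bp downstream of the Jun start, so the difference was not seen within 5 kb of the gene, where the log2 ratio was -0.22. It was also -0.22 when the 50% of peaks with the lowest scores were dropped from both lists.

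Junb, often an antagonist of Jun, had the widest start peak of the 9, with 13371 bp in WT and 13358 bp in Kap1 KO, at percentile 99.2 of WT start peaks. Its window held the starts of Hook2, Prdx2 and Rnaseh2a and had 5 peaks over 26287 bp in WT and 6 over 26936 bp in Kap1 KO. The sixth was a Kap1 KO only peak in an intron of Rnaseh2a with a score of 68.96, the lowest among the peaks of 1 genotype, and its middle holds TGACTCA.

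Jund, which is expressed more evenly than the other JUN genes and responds little to serum, had 3 peaks over 13978 bp in WT and 4 over 10238 bp in Kap1 KO, a log2 ratio of -0.45. Of the 3740 bp that WT had more of, the start peak, 6461 bp wide in WT and 6304 bp in Kap1 KO, gave 157 bp. A WT only peak 573 bp upstream of the Jund start gave 1314 bp (chr8:73219752-73221065, score 113.73). The other 2269 bp lay near the neighbour Lsm4, where a WT peak of 7252 bp with a score of 3100 faced 3 Kap1 KO peaks of 856, 1340 and 2543 bp with scores of 59.13, 171.99 and 2532.03. Within 5 kb of the gene the log2 ratio was -0.30.

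Atf3, a stress induced bZIP protein that pairs with JUN proteins and often represses, had 3 peaks over 5975 bp in WT and 4 over 7215 bp in Kap1 KO, a log2 ratio of 0.27. The start peak was 3042 bp in WT and 3319 bp in Kap1 KO, the narrowest of the 9 in both. It ended 1138 bp upstream of the start in WT and 1066 bp upstream in Kap1 KO, and reached 1903 and 2252 bp into the gene. The length in Kap1 KO was therefore added on the side of the gene body, together with a Kap1 KO only peak in an intron of Atf3 (chr1:193003308-193004860, score 85.1). Within 5 kb of the gene, which leaves out both distal peaks, the log2 ratio was 0.68, past the 1.5-fold line.

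Egr1, a zinc finger factor induced together with Fos but outside AP-1, had 2 peaks in both genotypes, over 5520 bp in WT and 4746 bp in Kap1 KO. Its start peak measured 4530 and 3660 bp, a log2 ratio of -0.31, the lowest start peak ratio of the 9. The peak about 11 kb upstream was 990 bp wide with a score of 102.74 in WT and 1086 bp with a score of 148.4 in Kap1 KO.

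**Figure D3:**
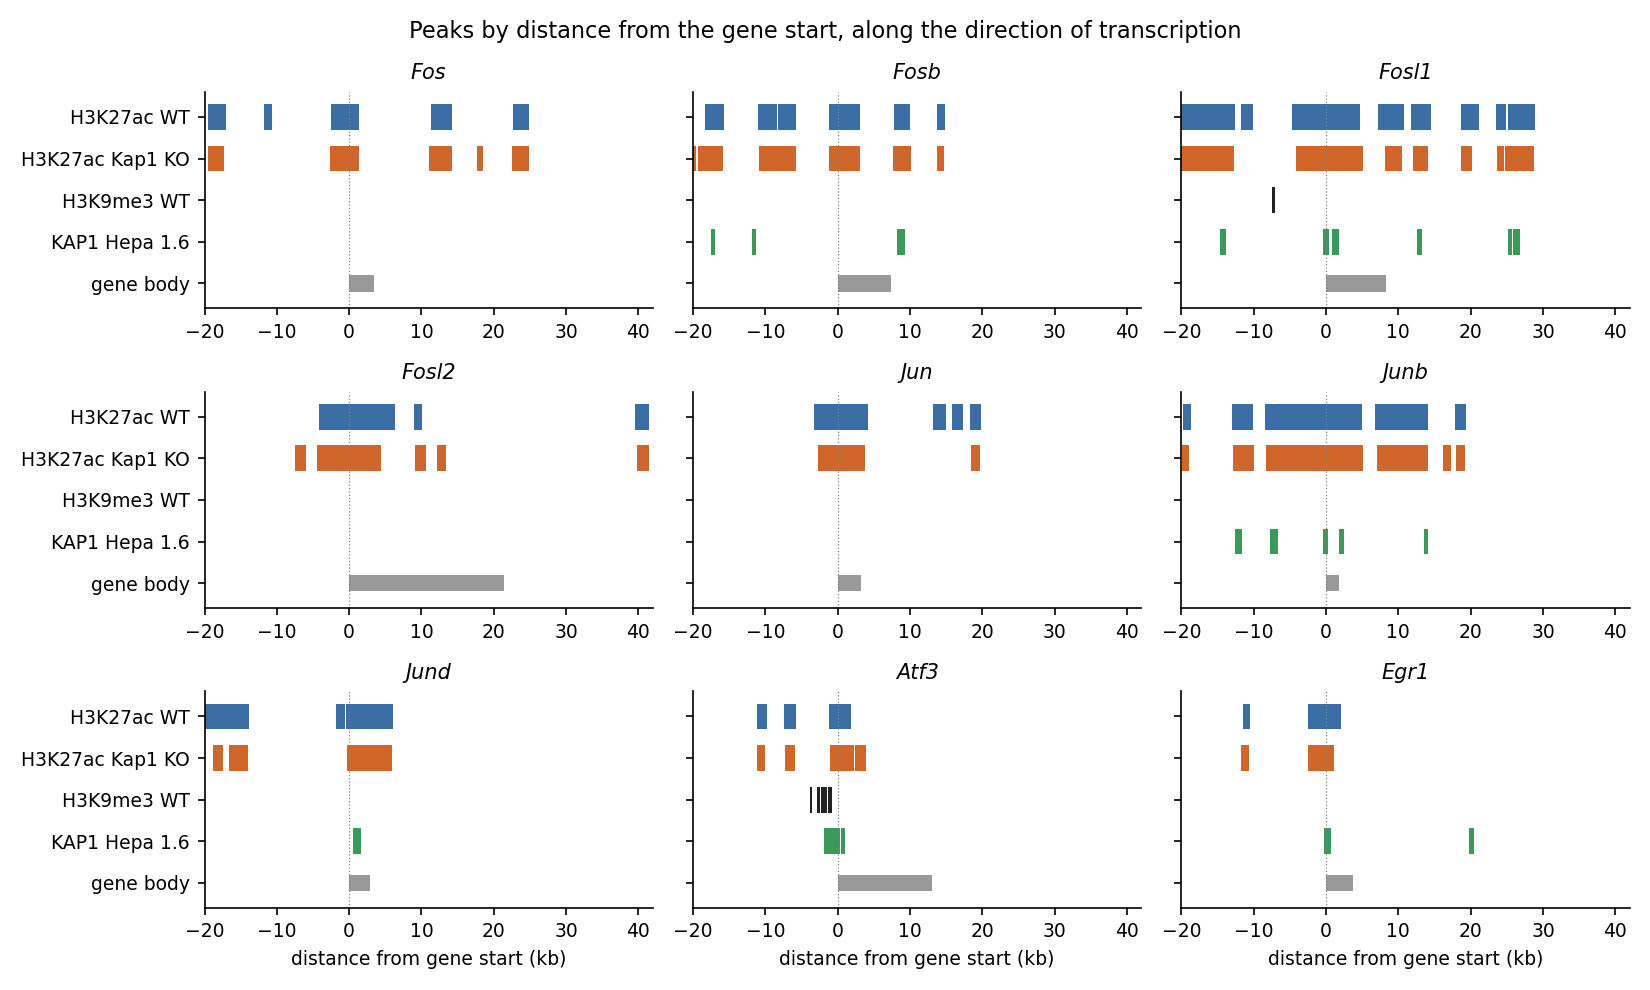
Peaks of H3K27ac in WT and Kap1 KO MEF, of H3K9me3 in WT MEF and of KAP1 in Hepa 1.6, by distance from the start of each gene in kb along the direction of transcription, from 20 kb upstream (1 library each). Bars span peaks, cut at the edges of the plot, and the grey bar spans the gene body. H3K9me3 bars appear at Fosl1 and Atf3 alone, Fos, Fosl2 and Jun have no KAP1 bar, and Kap1 KO had 0 H3K9me3 peaks in these windows.

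H3K27ac peaks found in only 1 genotype were 5 of the 39 WT peaks (12.8%) and 5 of the 42 Kap1 KO peaks (11.9%), where the whole lists had 22.8% each. The whole lists are an unequal background, since peaks near a transcript start were less often of 1 genotype. Within 1000 bp of a start the WT list had 1117 WT only and 11874 shared peaks, and farther away 7152 and 16129. Of the 39 WT peaks here, 22 lay within 1000 bp of a start. The scores of the peaks of 1 genotype at these genes were between 96.92 and 462.38 in WT and between 68.96 and 236.3 in Kap1 KO. The median was 165.99 in WT and 85.1 in Kap1 KO, where peaks of 1 genotype in the whole lists had 121.06 and 130.575. None covered a transcript start, while 18 of the 34 shared WT peaks did. At least 1 WT only peak lay in the window of 4 genes (Fos, Fosl1, Jun, Jund), and of 25.6% of all genes. At least 1 Kap1 KO only peak lay at 4 genes (Fos, Fosl2, Junb, Atf3), and at 22.3% of all genes.

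The AP-1 site was then sought in the acetylated peaks themselves. In the middle 500 bases of peaks more than 1000 bp from any annotated transcript start, TGACTCA was present at 5 of 17 peaks of the 9 genes in WT (29.4%) and at 10 of 24 in Kap1 KO (41.7%). Some of this difference came with the distance from a start. The same Fosl2 place, with TGACTCA in its middle, was within 1000 bp of a transcript start in WT and farther away in Kap1 KO, and the WT peak near Lsm4 faced 2 such farther peaks with the site. Without regard to distance the counts were 8 of 39 in WT (20.5%) and 12 of 42 in Kap1 KO (28.6%). Over the whole lists the share for peaks farther than 1000 bp was 36.7% for WT peaks that Kap1 KO shared, 37.2% for Kap1 KO peaks that WT shared, 26.8% for WT only peaks and 34.1% for Kap1 KO only peaks, and between 8.50% and 9.04% in stretches 10 kb away from them. Peaks closer to a start held it in their middle in 3 of 22 cases in WT at these genes and in 2 of 18 in Kap1 KO. The whole lists had 8.11% for shared and 15.2% for WT only peaks of this kind in WT, and 8.20% for shared and 28.2% for Kap1 KO only peaks in Kap1 KO. Over their full width, the 2 windows without any TGACTCA under a WT peak were those of Fos and Egr1. Of the 9 start peaks, those of Fosl1 and Junb held the most matches, 5 and 6 in both genotypes, over WT widths of 9421 and 13371 bp.

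KAP1 in Hepa 1.6 cells was listed at 19 peaks in the windows of 6 of the 9 genes, where 43.8% of all genes had one. They numbered 6 at Fosl1, 5 at Junb, 3 at Fosb, 2 each at Atf3 and Egr1, and 1 at Jund. Fos, Jun and Fosl2 had none, and their closest KAP1 peaks were 65.7, 1100 and 322 kb from the start. Since all 9 genes carry an active start in MEF, the share among the 11190 genes with a WT H3K27ac peak over the start is given as well, and it was 57.5%. The cells differ between these lists and the H3K27ac lists, hepatoma as against fibroblast, and no active mark was examined in Hepa 1.6.

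A KAP1 peak covered the start of 4 genes, Fosl1 (score 134), Junb (139), Egr1 (130) and Atf3 (891), against 14.3% of all genes and 26.6% of those with a WT H3K27ac start peak. At Jund the KAP1 peak (328) covered the second, CpG rich transcript start. Most of these peaks were weak, with a median score of 130 where the whole list had 149. Of the 19, 17 overlapped a WT H3K27ac peak of MEF (89.5%), compared with 36.9% of the whole KAP1 list. The whole list is an unequal background, since it is not limited to windows of genes with an acetylated start. The windows of Fosl1 and Junb, which held the most KAP1 peaks, were 66.0% and 62.9% under H3K27ac in WT. The share for KAP1 peaks near other genes with an acetylated start was not computed.

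The highest KAP1 score at these genes, 3100, belonged to the peak chr7:19886133-19887151, beyond the 3′ end of Fosb and 14 bp from the start of the noncoding Gm17589. A score this high or higher was given to 211 peaks of the list. The opposite strand of the stretch printed above holds the known sequence of the selenocysteine tRNA gene, which the annotation used here does not list. The same place carried H3K27ac in both genotypes (scores 2684.2 and 2476.33), no H3K9me3 peak and no SETDB1 listing.

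Atf3 was the 1 gene of the 9 with a SETDB1 listed peak, which 9.41% of all genes had in their window. The peak, chr1:193006918-193009094, ran from 1875 bp upstream to 301 bp downstream of the start and was 2177 bp wide. Its KAP1 score of 891 was reached by 5.90% of the list. A second KAP1 peak of 589 bp (score 129), not listed for SETDB1, lay in the intron just inside the gene.

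H3K9me3 peaks were present in WT MEF in the windows of 2 of the 9 genes, Atf3 and Fosl1, where 27.4% of all genes had one. In Kap1 KO they were present at 0 of 9, with a background of 4.44%. Atf3 had 4 in WT, all upstream. The innermost, chr1:193007980-193008517, began 761 bp from the start and scored 101.84, the next, chr1:193008754-193009464, scored 151.35, and the outer pair, chr1:193009595-193010067 and chr1:193010717-193011044, scored 62.97 and 55.51. The inner and the next one overlapped the KAP1 and SETDB1 listed peak of Hepa 1.6, and the innermost also overlapped the end of the WT H3K27ac start peak. The peak at Fosl1, chr19:5440201-5440697, scored 80.18, lay 7006 bp upstream and touched none of the KAP1 or H3K27ac peaks. These are low scores. When the WT list was limited to its 4319 highest peaks, as many as in Kap1 KO, the lowest score kept was 110.55, and 1 of the 4 peaks of Atf3 and 0 of Fosl1 remained.

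**Figure D4:**
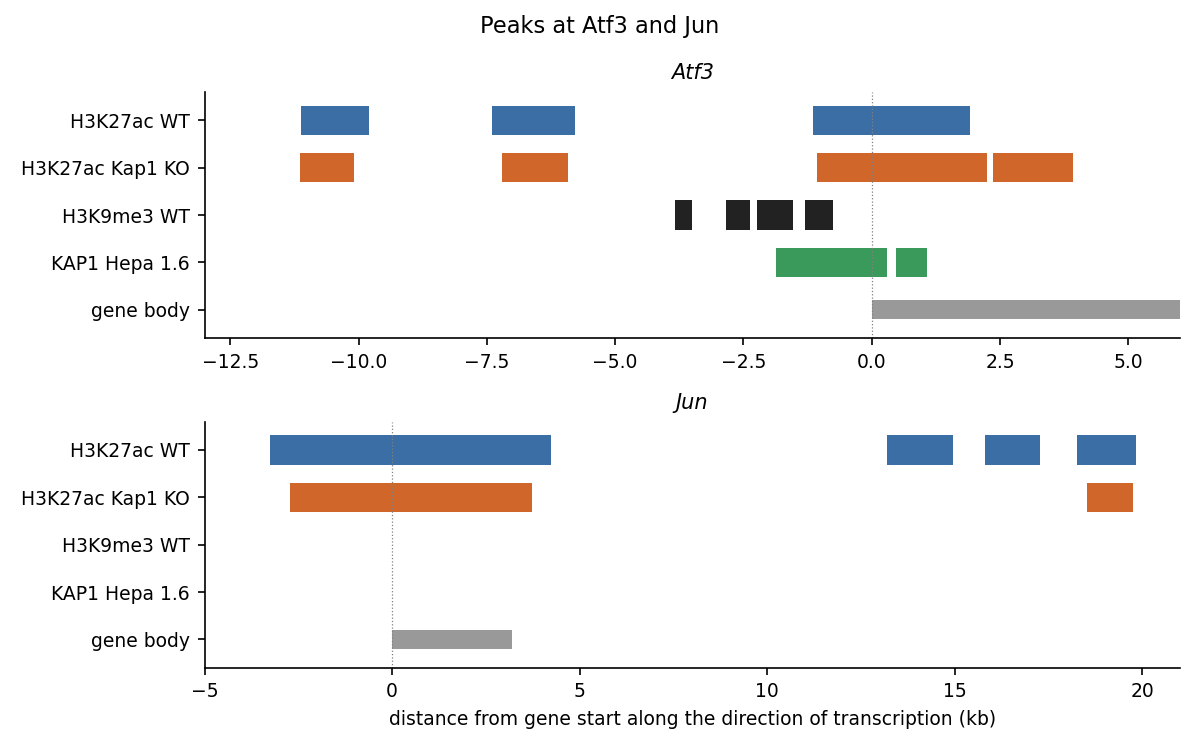
Peaks around the starts of Atf3 and Jun by distance from the start in kb along the direction of transcription, for H3K27ac in WT and Kap1 KO MEF, H3K9me3 in WT MEF and KAP1 in Hepa 1.6 (1 library each). At Atf3 the H3K9me3 bars lie upstream, between 761 and 3825 bp from the start, and the additional Kap1 KO H3K27ac bar lies inside the gene. At Jun the WT bars between 13183 and 17276 bp have no Kap1 KO counterpart.

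The arrangement at Atf3 was infrequent. A SETDB1 listed peak and a WT H3K27ac peak over the start together with a WT H3K9me3 peak within 5 kb of it were found at 11 of 22367 genes, or 0.0492%, a combination that was chosen after the values of Atf3 had been seen. Kap1 KO H3K9me3 peaks were absent within 5 kb of all 11, and 8 of the 11 had a Kap1 KO H3K27ac peak over the start. None of the others had as many WT H3K9me3 peaks as Atf3, with a median of 1. The absence in Kap1 KO is to be read against the shorter Kap1 KO list (4319 peaks, 14425 in WT) and the 4.44% of all genes with such a peak in their window. The share over other genes with a WT H3K9me3 peak within 5 kb was not computed. The 11 may not all be separate places, since genes on chromosome 4 had the same start peak widths (2957 bp in WT, 2458 bp in Kap1 KO). At Atf3 the H3K27ac start peak was 277 bp wider in Kap1 KO, and its upstream end, which lay inside the innermost WT H3K9me3 interval in both genotypes, did not move outward.

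The genes that work with AP-1 were taken from a list of 86, of which 85 were found in the annotation and 80 had enough covered bases. In this list 7 genes were at least 1.5-fold lower in Kap1 KO and 7 at least 1.5-fold higher, to be read against the 11.8% and 9.32% above. Among other bZIP genes, 1 of 20 was lower and 2 were higher. These were Maf (7430 bp in WT, 4533 bp in Kap1 KO), a lineage factor that binds AP-1 like sites, and on the higher side Ddit3 (12603 and 24225 bp), the stress factor CHOP, and Cebpb (7004 and 12896 bp), a regulator of inflammation and fat cell formation. Among other immediate early genes, 3 of 27 were lower and 0 were higher: Egr2 (9160 and 6001 bp), a relative of Egr1, Klf4 (8691 and 5580 bp), a zinc finger factor of growth arrest, and Sgk1 (7049 and 4335 bp), a serum induced kinase. Egr2 and Sgk1 had no H3K27ac peak over the start in either genotype.

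Among upstream regulators and feedback genes, 2 of 20 were lower and 2 higher. Elk3, a partner of the serum response factor, had 16908 bp in WT and 11111 bp in Kap1 KO. Dusp1, a phosphatase that switches off MAP kinases, had 13992 and 9162 bp. Nab2, which represses EGR proteins, had 20060 and 30664 bp. Nab2 and Ddit3 both lie on chromosome 10 and had more bases under fewer peaks in Kap1 KO (5 and 4 peaks at Nab2, 3 and 2 at Ddit3). Egr2, Sgk1 and Elk3, which were lower, lie on chromosome 10 as well. Whether genes of the same chromosome differed separately was not tested. Dusp2 had 1208 and 3999 bp, but its WT start peak was missing in Kap1 KO. The group's median log2 ratio was -0.19, with 16 of 20 below 0, while 60.5% of all genes tested were below 0. Among AP-1 targets, 1 of 13 was lower, the sphingosine kinase gene Sphk1 (9577 and 1367 bp), and 3 were higher, the protease gene Mmp9 (1623 and 4959 bp), the cytokine gene Il6 (2043 and 4590 bp) and the growth factor gene Hbegf (17049 and 25670 bp). Sphk1 and Mmp9 had no H3K27ac peak over the start in either genotype. Of the genes with no such difference, the longest covered lengths were those of Atf6 (52541 and 48496 bp), Mkl1 (41458 and 31791 bp) and Per1 (28771 and 30768 bp).

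Of the 85, 54 had a KAP1 peak in the window (63.5%), where 43.8% of all genes and 57.5% of those with a WT H3K27ac start peak did. A SETDB1 listed peak was in the window of 11 (12.9%, against 9.41% of all genes), a WT H3K9me3 peak of 23 (27.1%, against 27.4%) and a Kap1 KO H3K9me3 peak of 1 (1.18%, against 4.44%). Dusp1 combined a WT H3K9me3 peak, a SETDB1 listed peak and a lower H3K27ac length, and Mmp9 combined the first 2 with a higher one. Other genes of the list with both kinds of peak were less than 1.5-fold apart, with log2 ratios from -0.16 to 0.38, or had too few covered bases. These peaks share a wide window only, and a link between them and the H3K27ac length was not tested.

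By their lengths under all 6 lists, the genes most like Fos were Col6a3 (11140 bp of H3K27ac in WT and 10872 bp in Kap1 KO), Fyttd1 and Islr, at Euclidean distances of 0.00708, 0.0131 and 0.0197 on the log2 scale. Those most like Jun were Map3k9 (12403 and 7508 bp), Vwa1 and Ccdc12, at 0.0298, 0.0572 and 0.0688. None of these 6 had bases under H3K9me3, KAP1 or SETDB1 peaks in its window, as is the case for Fos and Jun.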

How the data were processed

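ChIP-seq peak lists of KAP1 and SETDB1 (Hepa 1.6) and of H3K27ac and H3K9me3 (WT and Kap1 KO MEF) were used, with 1 library per condition. The authors deposited the position and the score of each peak; per their methods and the submitters' processing notes, reads had been mapped to mm9 with Bowtie 2 (2.2.1) and MACS (1.4) had called peaks over total input at a stated cutoff score of 80. The MEF lists go down to a score of about 50 and were used whole. Genes came from GENCODE (mm9) and sequences from the mm9 genome (NCBIM37). Starts are counted from 1.

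Bases under peaks were summed in the gene body with 20 kb on both sides, and called when the genotypes were at least 1.5-fold apart. The gene start was the 5′ end of the gene. Peaks were shared when they had at least 1 bp in common. No test, error or interval was computed, because there were no replicates or read counts. Likeness was the Euclidean distance over log2 of covered bases plus 1000 in the 6 lists. The 9 genes are all described; of 86 related genes, those called and the 3 longest not called are named, and of other genes the neighbours closest to a described peak and the 3 genes most like Fos and Jun. The 9 genes and the related lists were chosen with earlier results of these data known. Cebpd was not found in the annotation. RNA-seq, ES cell, liver and input samples were not analysed here. Python 3.11.15, numpy 2.4.6, matplotlib 3.10.9 and bedtools 2.31.1 were used, and coverage was tested on simulated data and against bedtools.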

Additional observations from a re-analysis of the deposited data

How the results depend on the processing

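No paired analysis was possible because each condition had 1 library. With windows of 5 kb, 0 genes were at least 1.5-fold lower in Kap1 KO (Jun was at -0.22) and 1 was higher (Atf3, 0.68), 1 gene had a WT H3K9me3 peak, and there were 1 WT only and 2 Kap1 KO only H3K27ac peaks. With windows of 50 kb, 5 genes had a WT H3K9me3 peak, with 10 WT only and 9 Kap1 KO only peaks. With the 50% of each list that has the highest scores, 0 genes were lower, with 0 WT only peaks and 1 Kap1 KO only peak. A fold of 2 left 0 genes lower. A score of at least 80 left 3 Kap1 KO only peaks. In the other 28 combinations of a count or median with an alternative, the count, or the ratio behind the median log2 value, stayed within 1.5-fold. The median log2 ratio of the 9 genes, -0.03, was -0.12 at a score of at least 80 and changed sign to 0.02 with windows of 50 kb. Over 6 settings the log2 ratio was below 0 in all for Fosl1 (-0.23 to -0.09), Jun (-0.68 to -0.22) and Jund (-0.52 to -0.30), and above 0 in all for Fosb (0.03 to 0.14) and Atf3 (0.13 to 0.68). It changed sign for Fos (-0.12 to 0.20), Fosl2 (-0.26 to 0.16), Junb (-0.09 to 0.06) and Egr1 (-0.31 to 0.19). The wider promoter window, the background of at least 5000 bases and the equal numbers of H3K9me3 peaks were chosen after seeing the data.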
